A study of Homo sapiens with 4 samples.

Results

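In all, 10 genes of the BCL2 family were followed through depletion of SNRNP40, a spliceosomal protein that belongs to the U5 snRNP. They were MCL1, BCL2L1, BCL2L2, BAX, BAK1, BCL2L11, BID, BAD, BIK and PMAIP1. The genes were chosen by symbol, and all 10 were found among the 23217 gene symbols of the deposited table, where they account for 47 of 44578 transcripts. The 4 libraries came from LV-M100, a single low-variability clone of the MDA-MB-231 breast cancer line. In the siControl group, 1 library received the negative control NC1 and 1 the BLOCK-iT Fluorescent Oligo. In the siSNRNP40 group, 1 library received siSNRNP40 #1 and 1 received siSNRNP40 #2. All cells were transfected by lipofection and harvested 48 h later, and total RNA was sequenced after rRNA removal. The sequences of the siRNAs, which define the comparison, are given as labelled, 5′ to 3′.
siSNRNP40 #1: ggaauagacaaugauauc
siSNRNP40 #2: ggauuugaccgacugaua

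The BCL2 family sets the threshold for the mitochondrial route of apoptosis. Prosurvival proteins (MCL1, BCL2L1, BCL2L2) hold the effectors BAX and BAK1 in check, and BH3-only proteins (BCL2L11, BID, BAD, BIK, PMAIP1) relieve that check or activate the effectors, which then permeabilize the outer mitochondrial membrane. MCL1 and BCL2L1 pre-mRNAs are textbook cases of splice choice with opposite outcomes: their long forms protect cells, whereas the short forms promote death. The family's levels and transcripts were therefore read after loss of a spliceosomal protein.

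Values are FPKM, that is, fragment counts scaled to transcript length and to the mapped total of the library. The table holds 1 pooled value per condition, so no value below has a replicate error, no test between conditions was run, and every difference describes these pooled libraries. Depth cannot be read from FPKM. The log2 ratio is siSNRNP40 over siControl throughout, and a gene's value is the sum over its transcripts. SNRNP40 itself stood at 40.4 FPKM with siControl and 6.12 with siSNRNP40, a log2 ratio of -2.72. The cell line markers VIM, CD44, CAV1, AXL and S100A4 lay between 115.9 and 750.1 FPKM with siControl, and ESR1, PGR, CDH1 and PTPRC lay at 0.0980 FPKM or below. EPCAM, which had been listed as low in this line, was present at 10.6 FPKM with siControl and 10.0 FPKM with siSNRNP40.

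The stretches that separate the long and short forms are shown because the splice choice in these genes lies in them. In MCL1 (chr1:150547027-150552214, minus strand) the short form skips exon 2. In the GENCODE annotation the 3-exon transcript MCL1-202 encodes 350 residues and the 2-exon transcript MCL1-201 encodes 271, and exon 2 spans 248 bases at chr1:150550720-150550967, which is not a multiple of 3. A further annotated form, MCL1-205, removes 459 bases within exon 1 and encodes 197 residues. In BCL2L1 (chr20:30252261-30310656, minus strand) both forms start exon 2 at the same base and differ in the 5′ splice site that ends it. The long transcript BCL2L1-201 encodes 233 residues and the short transcript BCL2L1-202 encodes 170, and the difference is 189 bases, or 63 codons, at chr20:30309458-30309646. The short forms of both genes lack the BH1 and BH2 homology regions of the long forms. Each sequence is from GRCh37 along the gene, with 10 bases added on either side. Capitals mark the AG before and the GT after exon 2 in MCL1, and in BCL2L1 the GT used by the short form followed by the GT used by the long form.
MCL1 exon 2, chr1:150550710-150550977: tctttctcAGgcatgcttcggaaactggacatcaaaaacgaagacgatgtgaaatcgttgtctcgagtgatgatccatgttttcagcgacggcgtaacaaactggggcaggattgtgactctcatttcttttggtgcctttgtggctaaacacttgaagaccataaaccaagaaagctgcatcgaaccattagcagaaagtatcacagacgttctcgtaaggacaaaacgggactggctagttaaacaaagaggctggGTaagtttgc
BCL2L1 end of exon 2, chr20:30309448-30309656: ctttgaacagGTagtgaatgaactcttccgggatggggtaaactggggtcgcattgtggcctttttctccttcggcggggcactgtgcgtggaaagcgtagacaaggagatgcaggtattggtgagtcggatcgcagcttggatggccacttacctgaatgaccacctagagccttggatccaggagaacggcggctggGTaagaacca

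The deposited table names its transcripts by assembly identifiers and gives all transcripts of a gene the same locus, as was the case for all 10 genes. The rows of MCL1 and BCL2L1 therefore could not be assigned to the long or the short form, and they are given below by identifier only. The annotation lists 8 transcripts of MCL1 and 15 of BCL2L1, against 3 and 2 rows in the table.

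At the level of whole genes, most of the family stayed within 2-fold of its control level after SNRNP40 depletion. All 10 genes had a mean FPKM of at least 1, and 1 of them, BIK, passed a log2 ratio of 1 in either direction, against 1.47% of the 12334 genes with that mean level and a signal in both conditions. Among the 10 genes, 7 had a log2 ratio above 0 and 3 below, a count in which the direction of BIK was fixed by the minimum level. Of all genes, 50.5% had a log2 ratio above 0. The family's median log2 ratio was 0.13, beside 0.00344 over all genes, and its median absolute log2 ratio was 0.29, beside 0.17 over all genes. Both medians include BIK. Over the 9 genes with at least 1 FPKM in both conditions, a setting added after the values were seen, the median log2 ratio was 0.10. An absolute log2 ratio under 0.5 was found for 9 of the 10 genes and for 89.7% of all genes. Under a bound of 0.25 the family had fewer, with 4 of the 10 genes against 66.3% of all genes.

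**Figure D1:**
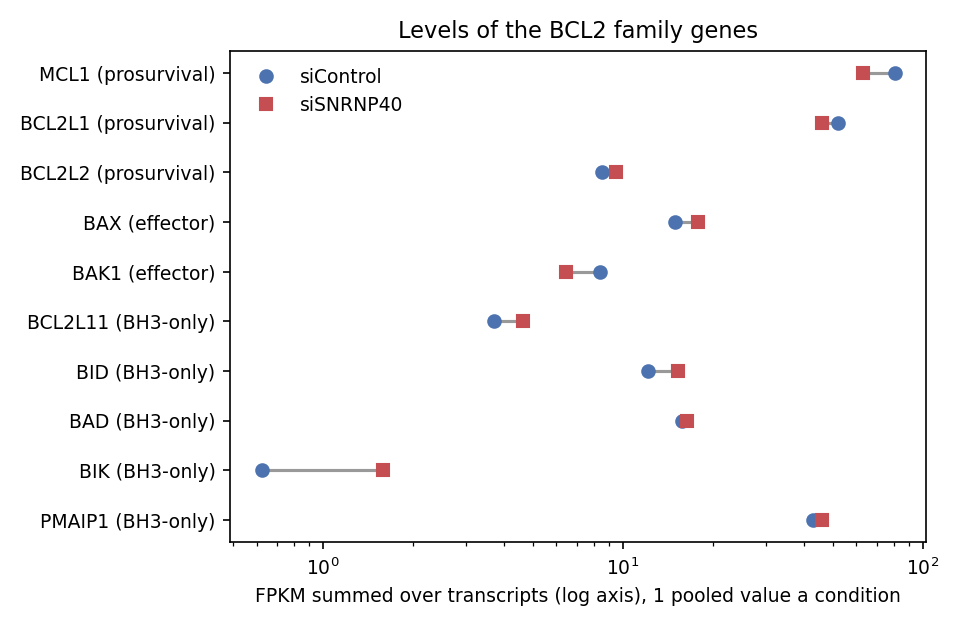
Level of each BCL2 family gene as FPKM summed over its transcripts (log axis), with a circle for siControl and a square for siSNRNP40, each 1 pooled value. MCL1, BCL2L1 and PMAIP1 lie above 40 FPKM in both conditions, and BIK, at 0.625 and 1.58 FPKM, has the widest gap.

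The family was led by 3 genes. With siControl the order of levels was MCL1 (80.4 FPKM), BCL2L1 (52.2), PMAIP1 (42.9), BAD (15.7), BAX (14.9), BID (12.1), BCL2L2 (8.49), BAK1 (8.40), BCL2L11 (3.72) and BIK (0.625). With siSNRNP40 the order was the same except that BAX, at 17.8 FPKM, stood above BAD, at 16.3 FPKM. With no replicate spread, no neighbours in this order can be called different. MCL1, BCL2L1 and PMAIP1 together held 73.3% of the family's summed FPKM with siControl and 68.5% with siSNRNP40.

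Of the prosurvival genes, the more abundant pair was lower after SNRNP40 depletion. MCL1, a short-lived guardian that binds BAK1 and BH3-only proteins, was at 80.4 FPKM with siControl and 63.1 FPKM with siSNRNP40, a log2 ratio of -0.35. Of all genes, 9.90% had a lower ratio than MCL1. BCL2L1, which encodes BCL-X, was at 52.2 and 46.1 FPKM, a log2 ratio of -0.18, with 23.7% of genes lower. Both differences are in the same direction, and MCL1 stayed above BCL2L1, with a ratio of the 2 levels of 1.54 with siControl and 1.37 with siSNRNP40. BCL2L2, which encodes the guardian BCL-W, was at 8.49 and 9.50 FPKM (log2 ratio 0.16). The 3 prosurvival genes summed to 141.1 FPKM with siControl and 118.8 FPKM with siSNRNP40, which is 58.9% and 52.4% of the total of the 10 genes. The sum takes every row of these genes. Since rows of MCL1 and BCL2L1 could not be assigned to long or short forms, it is not a level of prosurvival forms.

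The MCL1 difference lay almost wholly in a single transcript. TCONS_00003389 was at 36.3 FPKM with siControl and 20.1 FPKM with siSNRNP40, a log2 ratio of -0.85. TCONS_00003390 was at 43.5 and 41.6 FPKM (log2 ratio -0.07). TCONS_00003391 was at 0.591 and 1.40 FPKM (log2 ratio 1.24) and, with a mean of 0.994 FPKM, fell just short of the minimum level. The first transcript was thus lower by 16.2 FPKM, or 93.5% of the 17.3 FPKM by which the gene sum was lower. Its share of MCL1 was 45.1% with siControl and 31.9% with siSNRNP40, 13.2 percentage points apart, and that of TCONS_00003390 was 54.1% and 65.9%. Transcript FPKM of overlapping forms rest on a statistical division of shared fragments, whose part in this difference was not tested.

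BCL2L1 showed no comparable movement between its transcripts. TCONS_00025149 was at 51.0 FPKM with siControl and 44.9 FPKM with siSNRNP40. TCONS_00025148 was at 1.19 and 1.23 FPKM. The major transcript carried 97.7% of the gene with siControl and 97.3% with siSNRNP40, a shift of 0.377 points.

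BCL2L2 has 2 rows, of which TCONS_00011547 carried all of its signal. It shares the locus chr14:23775971-23795394 with the read-through gene BCL2L2-PABPN1, listed at 53.8 FPKM with siControl and 55.3 FPKM with siSNRNP40, and with PABPN1, at 23.1 and 23.0 FPKM. Because these genes share exons, the division of fragments among them is uncertain, and so is the level of BCL2L2.

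The effectors differed in direction. BAX, which oligomerizes in the outer mitochondrial membrane, was at 14.9 FPKM with siControl and 17.8 FPKM with siSNRNP40 (log2 ratio 0.26, with 84.0% of genes lower). BAK1, its membrane-resident counterpart, was at 8.40 and 6.43 FPKM (log2 ratio -0.39, with 8.28% of genes lower). Their sum was nearly level, at 23.3 FPKM with siControl and 24.3 FPKM with siSNRNP40. BAX lies at chr19:49458117-49465055 on the plus strand and BAK1 at chr6:33540323-33548070 on the minus strand. BAK1 has 1 row, and the annotation holds 2 processed pseudogenes named for it, BAK1P1 and BAK1P2, neither of which the table lists; reads shared with them were not tested.

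Within BAX, TCONS_00019962 carried 88.1% of the gene with siControl and 88.7% with siSNRNP40, at 13.1 and 15.8 FPKM, and made up 91.8% of the difference of the gene sum. Of the minor transcripts, some were seen mainly in 1 condition. TCONS_00019964 was at 1.17 FPKM with siControl and 2.84e-04 FPKM with siSNRNP40, whereas TCONS_00019965 was listed at 0 and at 1.27 FPKM. The largest share shift in BAX was 7.90 points.

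Of the BH3-only genes, PMAIP1, BAD, BCL2L11 and BID had log2 ratios from 0.06 to 0.33, and BIK, which is described last, was counted only through its siSNRNP40 value. PMAIP1, which encodes NOXA, a selective partner of MCL1, was at 42.9 FPKM with siControl and 45.9 FPKM with siSNRNP40 (log2 ratio 0.10). BAD, which binds BCL-X and BCL2 when it is not phosphorylated, was at 15.7 and 16.3 FPKM (log2 ratio 0.06). PMAIP1 lies at chr18:57567192-57571538 on the plus strand and has 1 row, and BAD lies at chr11:64037300-64056972 on the minus strand. These 2 genes were close to level, and within BAD the major transcript TCONS_00008041 was at 14.3 and 14.6 FPKM and the minor TCONS_00008040 at 1.38 and 1.75 FPKM.

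BID links death receptors to mitochondria once caspase 8 has cleaved it, and lies at chr22:18216906-18257431 on the minus strand. Its sum was 12.1 FPKM with siControl and 15.2 FPKM with siSNRNP40, a log2 ratio of 0.33, with 88.6% of genes lower. The 2 leading transcripts were both higher: TCONS_00026554 was at 4.72 and 6.81 FPKM, and TCONS_00026559 was at 5.28 and 6.38 FPKM. The widest share shift, 12.2 points, was in TCONS_00026556, at 0.0127 FPKM with siControl and 1.87 FPKM with siSNRNP40. In the same gene, TCONS_00026555 and TCONS_00026558 were at 0.734 and 0.814 FPKM with siControl and listed at 0 with siSNRNP40. Minor BID transcripts thus lay on both sides of their control levels.

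BCL2L11 encodes BIM, whose extra-long, long and short forms come from alternative splicing, and lies at chr2:111878491-111926022 on the plus strand. Its 20 rows summed to 3.72 FPKM with siControl and 4.65 FPKM with siSNRNP40, a log2 ratio of 0.32, with 88.0% of genes lower. The gene sum and the leading transcript went in opposite directions, since TCONS_00022348 was at 2.10 FPKM with siControl and 1.74 FPKM with siSNRNP40 (log2 ratio -0.27). Its share of the gene was 56.5% with siControl and 37.4% with siSNRNP40. TCONS_00022335, at 0.183 and 1.24 FPKM, went from 4.93% to 26.7%, the widest shift of any member at 21.8 points. TCONS_00022352 was at 5.45e-04 and 0.872 FPKM, and TCONS_00022342 was at 0.663 FPKM with siControl and listed at 0 with siSNRNP40. All of these except TCONS_00022348 had means under 1 FPKM.

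BIK, an endoplasmic reticulum protein of the BH3-only group, had the widest ratio. Its single transcript, TCONS_00026434, at chr22:43506754-43525718, was at 0.625 FPKM with siControl and 1.58 FPKM with siSNRNP40, a log2 ratio of 1.34 or 2.53-fold, with 99.6% of genes lower. BIK was under 1 FPKM with siControl and met the minimum mean level through its siSNRNP40 value, so it had to differ in order to be counted. A log2 ratio above 1 was found for 0.811% of all genes and for 3.37% of the 1365 genes with a mean of 1 to 2 FPKM. When at least 1 FPKM was required in both conditions, a setting added after the values were seen, 0 of 9 family genes passed, against 0.840% of all genes, and with a pseudocount of 1 FPKM the log2 ratio of BIK was 0.67.

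**Figure D2:**
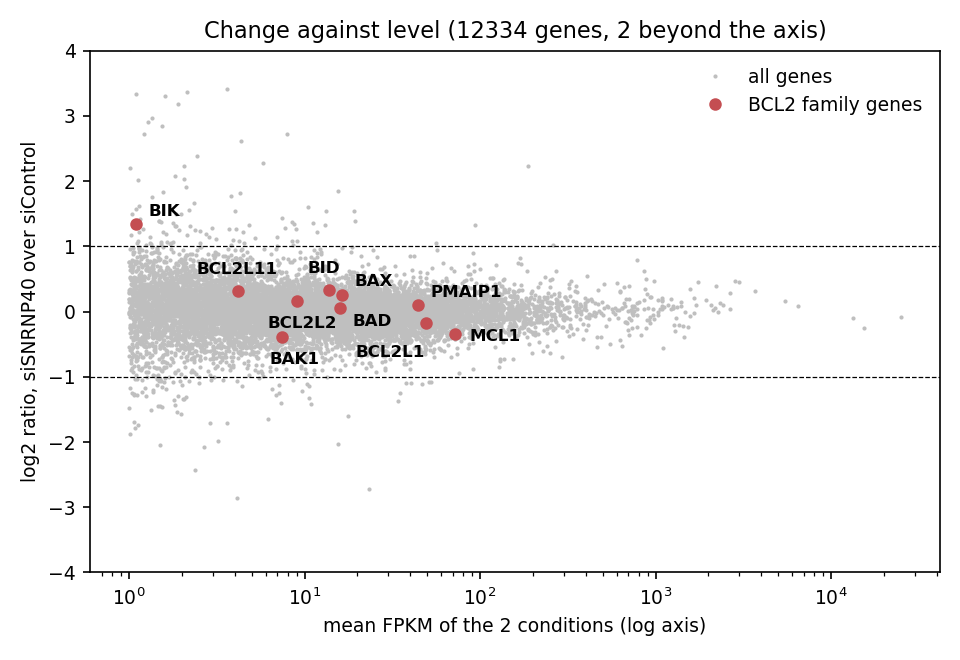
Log2 ratio of siSNRNP40 over siControl against the mean FPKM of the 2 conditions (log axis) for 12334 genes in grey, with the 10 BCL2 family genes in red and dashed lines at log2 ratios of -1 and 1. The family genes above 2 FPKM lie between -0.39 and 0.33, within the grey cloud, and BIK lies above the upper line where the cloud is widest.

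At the level of transcripts, 14 of the 47 family rows had a mean of at least 1 FPKM, 9 of them with a log2 ratio above 0 and 5 below. The 9 include BIK, and the same split was not counted over all transcripts. The other rows comprised 16 listed at 0 in both conditions and 17 with a lower mean. Of the 14, only the row of BIK passed a log2 ratio of 1, against 10.5% of the 16691 transcripts with that level. No family row carried a failed estimate. Shares could be followed in the 7 genes with 2 or more rows. Their largest shift had a median of 7.90 points, beside 7.35 points over all such genes. BCL2L11 alone reached 20 points, 1 of 7 genes, against 20.7% of the 5282 genes with 2 or more rows and 31.9% of the 1137 genes with 5 or more.

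**Figure D3:**
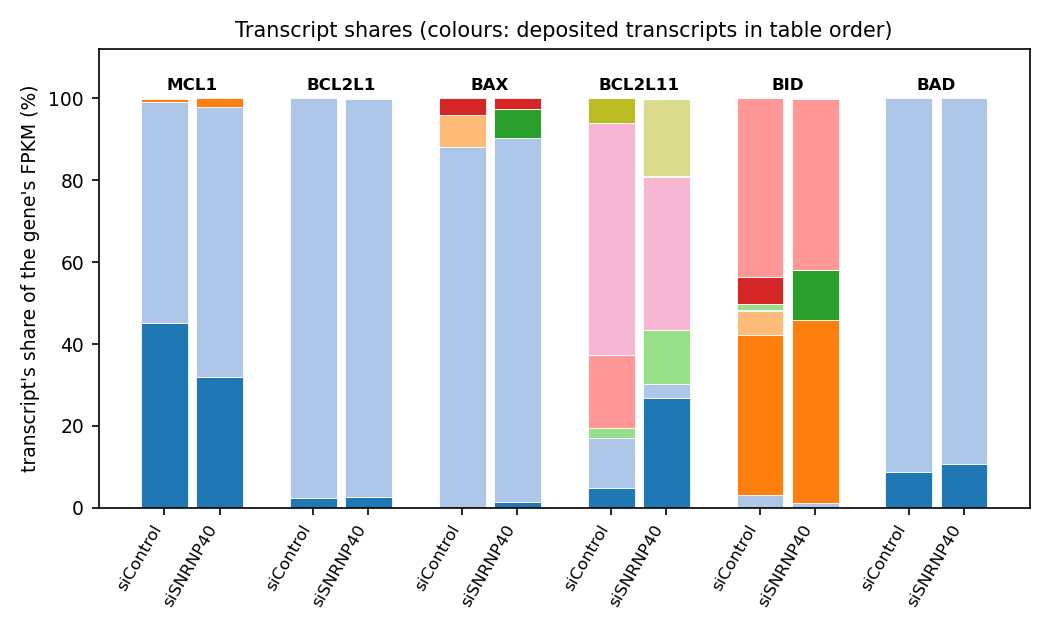
Share of each gene's summed FPKM held by each deposited transcript (%), as stacked bars for siControl and siSNRNP40 in 6 family genes, with 1 colour per transcript within a gene. In MCL1 the lowest segment shrinks from 45.1% to 31.9%, BCL2L1 and BAD keep 1 dominant transcript, and BCL2L11 has the widest shift, 21.8 points.

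The surrounding pathway was examined in 6 lists holding 63 genes, of which 57 had a mean of at least 1 FPKM and a signal in both conditions, and 0 passed a log2 ratio of 1 as gene sums. No test was run on any list, and 50.5% of all genes had a log2 ratio above 0. Of 13 other BCL2 family genes, 9 met the level, 6 of them above 0 and 3 below, with a median log2 ratio of 0.17. The 6 and the median include BCL2, whose direction was fixed by the minimum level. The genes at a mean of at least 5 FPKM with the widest ratios were the mitophagy receptors BNIP3L, at 65.4 FPKM with siControl and 42.3 FPKM with siSNRNP40 (log2 ratio -0.63), and BNIP3, at 222.0 and 157.8 FPKM (-0.49), and the BH3-only gene BBC3, which encodes PUMA, at 4.54 and 6.90 FPKM (0.60). BCL2 itself was low, at 0.795 FPKM with siControl and 1.29 FPKM with siSNRNP40, and was counted only through its siSNRNP40 value. BCL2A1, BCL2L10, BCL2L14 and HRK did not reach a mean of 1 FPKM. The family outside the 10 genes thus held both higher and lower genes.

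Downstream of the mitochondria, 12 of 13 genes met the level, 5 above 0 and 7 below (median log2 ratio -0.06). APAF1, the scaffold of the apoptosome, was at 8.91 FPKM with siControl and 6.96 FPKM with siSNRNP40 (-0.36), and the outer membrane channel VDAC2 at 122.5 and 97.6 FPKM (-0.33). All 7 inhibitors of apoptosis met the level, 4 above 0 and 3 below (median 0.02). The ubiquitin ligases BIRC2 and BIRC3 went in opposite directions: BIRC2 was at 58.8 and 38.6 FPKM (-0.61) and BIRC3 at 22.4 and 30.0 FPKM (0.42), while XIAP, a direct caspase inhibitor, was at 23.4 and 21.7 FPKM (-0.11). All 10 genes listed for the death receptor arm met the level, 6 above 0 and 4 below (median 0.04). Its signalling genes RIPK1 (27.3 and 23.8 FPKM, -0.20), TRADD (5.43 and 6.15 FPKM, 0.18) and FADD (37.2 and 41.2 FPKM, 0.15) led those at 5 FPKM or more.

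Genes listed for MCL1 turnover or for MCL1 and BCL2L1 splice choice had log2 ratios between -0.25 and 0.27. These are gene sums that met the level. All 6 genes listed for MCL1 turnover met the level, with log2 ratios between -0.11 and 0.27. The part of each in MCL1 turnover was not examined here. The ligase genes BTRC and FBXW7 were at 6.88 and 8.28 FPKM (0.27) and at 17.9 and 21.4 FPKM (0.25), and CDK5RAP3 was at 33.5 and 36.3 FPKM (0.12). Of 14 regulators of BCL2L1 or MCL1 splice choice, 13 met the level, 3 above 0 and 10 below, with a median log2 ratio of -0.09 and a range from -0.25 to 0.16. HNRNPH1 was at 360.3 FPKM with siControl and 303.5 FPKM with siSNRNP40 (-0.25), RBM25 at 49.7 and 42.8 FPKM (-0.22) and PTBP1 at 36.9 and 32.0 FPKM (-0.20). Gene sums do not show transcript makeup. In HNRNPF, with a gene-sum log2 ratio of -0.05, TCONS_00005468 held 49.8% of the gene with siControl and 70.8% with siSNRNP40.

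**Figure D4:**
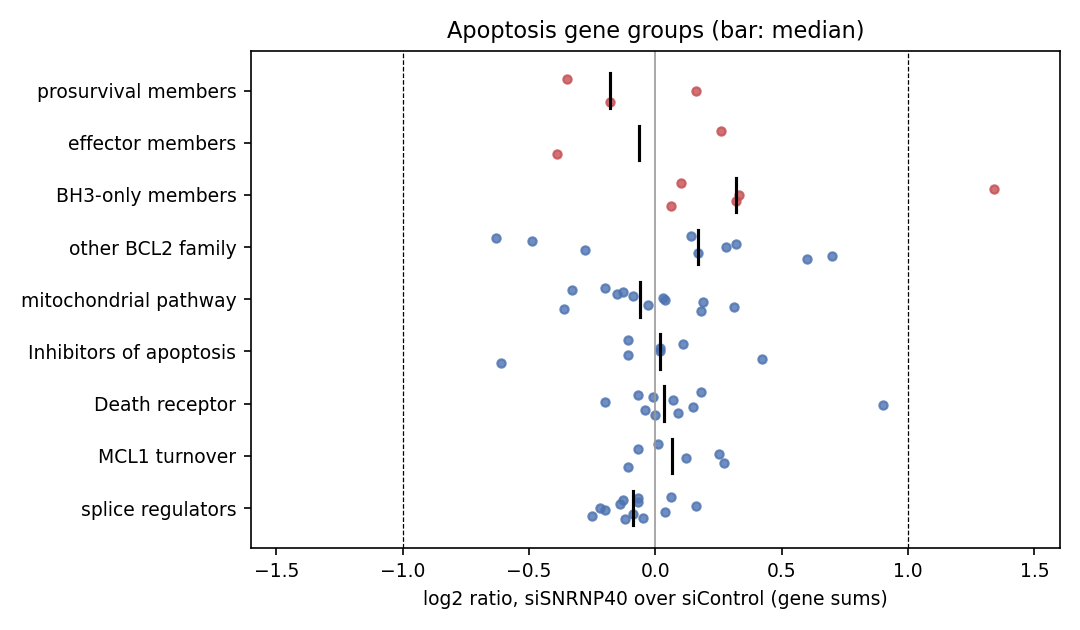
Log2 ratio of siSNRNP40 over siControl for the gene sums of the 3 groups of BCL2 family genes (red) and of 6 pathway lists (blue), 1 point per gene, with the group median as a bar and dashed lines at -1 and 1; the height of a point within its row carries no meaning. BIK, at 1.34, is the only point beyond a dashed line. The prosurvival, effector and BH3-only groups have medians of -0.18, -0.06 and 0.32. They hold 3, 2 and 5 genes, and the last group includes BIK, which was counted only through its siSNRNP40 value. So was BCL2, in the list of other BCL2 family genes.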

How the data were processed

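Adapter trimming by the authors used cutadapt 1.2.1, alignment to hg19 used TopHat2 2.0.8, and transcripts were assembled with Cufflinks and compared with Cuffdiff 2.0.2, per the submitters' processing notes and the study's methods. Their deposited FPKM values are scaled for transcript length and mapped fragments and pool the 2 libraries of a condition, so depth, replicate error and the effect of each siRNA are unknown. Whether counting used strand is not given in the sources used here. Opposite-strand genes overlap the loci of BCL2L1, BAK1, BCL2L11 and BAD. The authors' deposited fold changes, test statistics, p-values and q-values were not used.

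FPKM was summed per gene symbol, and log2 ratios were taken without a pseudocount for features with a mean of at least 1 FPKM and a signal in both conditions. Features past an absolute log2 ratio of 1 were counted, as were share shifts of at least 20 percentage points. Members, lists and thresholds were chosen with earlier results of these data known. Named genes are the members, SNRNP40 and, per list, the 3 widest ratios at a mean of at least 5 FPKM; 1 gene that this rule names is not reported here, and others named were chosen after their values were seen. Positions and sequences are from GRCh37, which shares coordinates with hg19, and GENCODE release 44. Alternatives changed the filter, pseudocount, scaling and summing. Python 3.11.15, numpy 2.4.6 and pandas 2.3.3 were used, and the counting steps were tested on simulated data.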

Additional observations from a re-analysis of the deposited data

How the results depend on the processing

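No paired analysis was possible because single libraries have no columns of their own, and leaving out a replicate was not run for the same reason. The count of family genes past a log2 ratio of 1, which was 1, became 0 at a mean of at least 5 FPKM (8 genes left), 0 with a pseudocount of 1 FPKM and 0 when at least 1 FPKM was required in both conditions, the last chosen after seeing the data; over all genes 0.572%, 0.60% and 0.840% passed. The count of family transcripts, also 1, became 0 under each of these 3 settings, where 3.46%, 7.21% and 5.54% of all transcripts passed, and 10 of 24 without a filter, where 24.2% passed. The count of genes with a share shift of 20 points, 1, became 0 for gene sums of at least 5 FPKM, since BCL2L11 is then left out, and 0 with a pseudocount of 0.1 FPKM, beside 14.5% and 18.8% of all genes. The log2 ratio of SNRNP40 became -2.54 with a pseudocount of 1 FPKM. The family median of 0.13 stayed between 0.06 and 0.15. Of 40 values of single members under 4 alternatives, 37 moved by less than 0.1 and 3 by more: MCL1 to -0.07 and BCL2L11 to -0.27 with the most expressed transcript, and BIK to 0.67 with a pseudocount of 1 FPKM. Limits from sequencing depth could not be computed from FPKM; the median absolute log2 ratio was 0.30 over all genes at 1 to 2 FPKM and 0.14 at 20 to 100 FPKM.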

Other observations

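Transcript makeup differed more in some apoptosis genes outside the 10 members, named here after their values were seen. Most lists held few or none. A share shift of 20 points or more was found in 3 of 4 measured genes of the other BCL2 family. In the death receptor list it was found in 2 of 5, FAS and CASP2, and among splice regulators in 1 of 9, HNRNPF. The counts were 0 of 10 downstream of the mitochondria, 0 of 5 inhibitors of apoptosis and 0 of 4 genes listed for MCL1 turnover. BCL2L12, a divergent family member, has 2 transcripts whose listed values traded places. TCONS_00020005 was at 4.59 FPKM with siControl and 0.0147 FPKM with siSNRNP40, and TCONS_00020004 was at 2.31e-04 and 5.14 FPKM. Their sum was nearly level, at 4.59 and 5.16 FPKM. CASP2, an initiator caspase with known long and short splice forms, summed to 8.10 and 8.65 FPKM, while TCONS_00038129 went from 87.6% to 1.92% of the gene and TCONS_00038130 from 5.17% to 54.7%. In BMF, a BH3-only gene, TCONS_00013695 was at 8.70e-05 FPKM with siControl and 3.15 FPKM with siSNRNP40, within gene sums of 3.10 and 3.88 FPKM. FAS, the death receptor, was at 2.17 FPKM with siControl and 4.05 FPKM with siSNRNP40, a log2 ratio of 0.90. Its transcript TCONS_00004864 was at 1.02 and 4.05 FPKM, and TCONS_00004866 was at 1.15 FPKM with siControl and listed at 0 with siSNRNP40. In BBC3, TCONS_00021262 was at 2.91 and 6.22 FPKM, or 64.1% and 90.2% of the gene. These transcripts have means between 0.573 and 4.56 FPKM, and their rows cannot be assigned to named splice forms. The part in these shifts of the statistical division of shared fragments was not tested. A shift of 20 points or more was found for 20.7% of all genes with 2 or more rows. The named genes therefore do not show that such shifts were more frequent in apoptosis genes than elsewhere.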
